A study of Mus musculus with 13 samples.

Results

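Genes of the proteasome were described in the cortex of mice with lowered RNA of the mouse progranulin gene, Grn. The members were all genes whose symbol is Psm, a letter from a to g, a number and at most a closing letter. The rule found 46 of 13482 genes in the authors' deposited table of Grn+/- against wild type. For Grn-/-;GRNtg it found 46 of 14961 genes in the comparison with wild type and 49 of 17562 in that with Grn+/-. The cortex of 13 males, all 18 months old, was sampled: 5 Grn+/+ wild-type mice, 4 Grn+/- mice with 1 working copy of the mouse progranulin gene, and 4 Grn-/-;GRNtg mice, labelled as lacking both mouse copies and carrying a human GRN transgene. The series calls the last group humanized, and the labels give neither the promoter of the transgene nor its copy number. The title of the series puts the question as the effect of mouse and of human progranulin haploinsufficiency on cortical RNA. No values per mouse were used here, so every value below is the authors' mean, log2 fold change or standard error (SE) over these groups, and the spread of single mice cannot be shown.

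The proteasome is the large protease that degrades proteins tagged with ubiquitin. Its 20S core is a barrel of alpha rings, which gate the entry, and beta rings, which hold the cutting sites. The 19S cap binds the barrel: a ring of ATPases unfolds the substrate, and non-ATPase subunits capture ubiquitin and remove it. Other activators can take the place of the cap, dedicated chaperones assemble both particles, and interferon exchanges the cutting subunits for those of the immunoproteasome. Neurons rely on it to clear proteins that division cannot dilute. Many of these genes share transcription factors, of which Nfe2l1 (NRF1) is the best known.

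By the authors' deposited tables, mouse Grn (chromosome 11) fell to 63.6% of wild type in Grn+/- (adjusted p = 2.9e-13). It fell to 24.7% in Grn-/-;GRNtg (adjusted p = 5.8e-131) by the authors' deposited table. Taken as deposited, this value leaves reads assigned to the mouse gene in the mice labelled Grn-/-. The deposited fold changes were probably drawn towards 0, as described under the processing, so the raw shares may be lower than both percentages. The labels do not say which part of the gene is deleted, and the source of these reads was not tested.

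Core and cap subunits were mostly above the median gene in level, and the inhibitor, the cap chaperones as a class, Psmb8 and Psmb9 were below it. Levels are given as the mean normalized count over the 13 libraries per kb of annotated exon, from the authors' deposited tables. The ATPases of the 19S cap had the highest median, 1015 per kb, and ranged from 219 for Psmc6 to 2333 for Psmc5. The constitutive beta subunits had a median of 582, from 324 for Psmb3 to 1248 for Psmb5, which carries the chymotrypsin-like site. Non-ATPase subunits of the cap had a median of 421, from 106 for Psmd11 to 1048 for Psmd2, the largest docking subunit of the cap. Alpha subunits had a median of 332, from 204 for Psma3 to 784 for Psma6. All of these medians lay above that of all genes, 108 per kb. Chaperones that build the 20S core were near that level, with a median of 117, as was the inhibitor Psmf1 at 99.1. The 3 cap chaperones had a median of 80.8 and the activators one of 224, from 106 for Psme4 to 644 for Psme3. The immunoproteasome was low except for 1 subunit: Psmb9 had 10.4 per kb and Psmb8 26.5, but Psmb10 had 433. Psma8 and Psmb11, core subunits of the testis and the thymus, and Psme2b, a close copy of Psme2, stood in the third table alone, at mean normalized counts of 4.19, 3.29 and 4.89. The 49 genes held 0.311% of the summed mean normalized counts of all genes. Reads of single cell types cannot be told apart in these bulk samples, nor can fewer cells of a type be told from less RNA per cell.

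**Figure D1:**
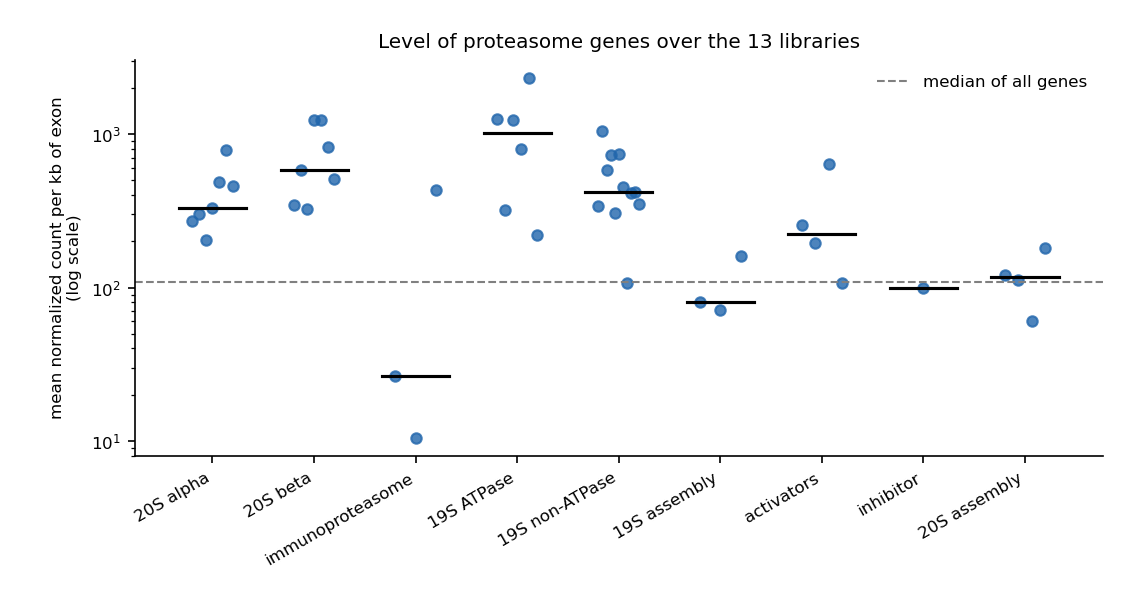
Mean normalized count per kb of exon (log scale) of the 46 proteasome genes listed in all 3 tables, by class. Each point is 1 gene averaged over the 13 libraries, the bar is the class median and the dashed line is the median of all genes. The 19S ATPases have the highest class median, 1015, and Psmb8 and Psmb9 lie lowest.

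Promoter sequence is shown for 4 members because the family is known for shared regulation. Psmb4 and Psmc4 were among the genes that rose in Grn+/-. Psmb5 and Psmd9 hold the letters of the antioxidant response element, the site known for NRF1 and its relatives. The stretches are upstream of the RefSeq start on GRCm38.p6, written 5′ to 3′ on the strand of the gene, and end before any transcript RefSeq gives for the gene. Capitals mark the antioxidant response element, TGACNNNGC, and in Psmd9 also the interferon-stimulated response element, which is GAAA, any bases NN, and GAAA again. The Psmb4 stretch is chr3:94886962-94887208 (minus strand) and the Psmc4 stretch chr7:28050102-28050342 (minus strand). The Psmb5 stretch is chr14:54618023-54618245 (minus strand) and the Psmd9 stretch chr5:123227940-123228189 (plus strand). GENCODE M21 starts Psmd9 further upstream, at 123169413, so that stretch lies inside its annotated span there.
Psmb4: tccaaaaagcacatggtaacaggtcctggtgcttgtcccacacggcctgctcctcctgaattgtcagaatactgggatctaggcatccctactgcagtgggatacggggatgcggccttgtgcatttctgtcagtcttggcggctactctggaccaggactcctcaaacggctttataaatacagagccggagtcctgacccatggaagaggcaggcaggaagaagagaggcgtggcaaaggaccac
Psmc4: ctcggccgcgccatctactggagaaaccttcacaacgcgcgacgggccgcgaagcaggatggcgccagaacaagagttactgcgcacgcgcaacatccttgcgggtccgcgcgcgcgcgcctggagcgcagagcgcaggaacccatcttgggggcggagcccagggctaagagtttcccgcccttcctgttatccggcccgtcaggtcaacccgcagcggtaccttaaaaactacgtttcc
Psmb5: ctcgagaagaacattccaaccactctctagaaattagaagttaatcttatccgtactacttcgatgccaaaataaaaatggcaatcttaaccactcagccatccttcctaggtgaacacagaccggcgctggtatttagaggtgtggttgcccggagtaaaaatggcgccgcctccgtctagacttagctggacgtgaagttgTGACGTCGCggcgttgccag
Psmd9: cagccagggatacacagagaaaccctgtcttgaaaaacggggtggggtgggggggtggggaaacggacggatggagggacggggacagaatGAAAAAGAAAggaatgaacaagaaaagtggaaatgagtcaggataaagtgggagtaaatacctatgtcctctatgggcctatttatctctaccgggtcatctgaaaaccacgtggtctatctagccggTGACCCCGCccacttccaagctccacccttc

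Over windows from 250 bases before to 50 bases after the start, read on both strands, 39 of the 46 genes had a RefSeq promoter. The letters TGACNNNGC were in 6 of the 39 (15.4%): Psmb5, Psmb6, Psmc6, Psmd12, Psmd9 and Psme4. They were in 3781 of the 27025 genes with such a window. The CCAAT box was in 13 of the 39 (33.3%) against 41.1% of all genes. The interferon-stimulated response element was in 5 of the 39 (12.8%) against 3.99% of all genes: Psmb3, Psmd4, Psmd9, Psme1 and Psmg4. In the members, matches of different motifs did not overlap. Of the genes that rose in either comparison, Psmb6 alone held the antioxidant letters, and Psmc3 had no window in the table. The median log2 fold change in Grn+/- against wild type was 0.11 with these letters and 0.10 without them, from the authors' deposited table. It was 0.092 and 0.091 in Grn-/-;GRNtg against wild type, from the authors' deposited table. A match describes the letters and is no evidence of a bound factor.

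In Grn+/- against wild type, 7 of the 46 proteasome genes rose (15.2%) and 0 fell, by the authors' adjusted p under 0.05 (a Wald test with Benjamini-Hochberg adjustment over the table, where the submitters' notes name DESeq2 as a tool). Of all genes listed there by the authors, 2.29% rose and 4.51% fell. With the median of genes of like genomic span subtracted 1 of the 7 still passed, and 0 did once each statistic was scaled by the robust spread of all genes. The 7 came from the core (Psmb4), the ATPase ring (Psmc2, Psmc3, Psmc4), the rest of the cap (Psmd2, Psmd13) and the regulators (Psmf1). The changes were small, between 9.42% for Psmc3 and 17.8% for Psmf1 in the authors' deposited table. At an unadjusted p under 0.05 there were 19 genes, all higher, against 9.09% of all genes higher and 11.1% lower (20.2% in all). The log2 fold change was above 0 in 43 of the 46, against 52.4% of all genes, and its median was 0.10 against 0.008. In the table, 78.02% of all genes had a log2 fold change below the median of the members.

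Psmf1 (chromosome 2, 151715812 to 151744186, GRCm38) rose most. It encodes an inhibitor of the 20S core that also couples proteasomes to axonal transport. Its log2 fold change was 0.24 ± 0.067 (SE) (adjusted p = 0.014), by the authors' deposited table. Psmd2 (chromosome 16, 20651652 to 20663414) encodes the cap subunit on which ubiquitin shuttle proteins dock, and it rose by 10.5% (log2 0.14 ± 0.042, adjusted p = 0.018) by the authors' deposited table. Psmd13 (chromosome 7, 140881968 to 140898643), a subunit of the cap's lid, rose by 13.2% (log2 0.18 ± 0.055, adjusted p = 0.026) by the authors' deposited table. The lid and base of the cap were thus both among the genes that rose.

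Of the 6 ATPases, 3 rose and all 6 had a log2 fold change above 0, with a median of 0.14. Psmc4 (chromosome 7, 28041707 to 28050101) rose by 12.3% (log2 0.17 ± 0.050, adjusted p = 0.022) by the authors' deposited table. Psmc3 (chromosome 2, 91054009 to 91066369) rose by 9.42% (log2 0.13 ± 0.041, adjusted p = 0.031) by the authors' deposited table. Psmc2 (chromosome 5, 21785283 to 21803787) rose by 15.5% (log2 0.21 ± 0.067, adjusted p = 0.035) by the authors' deposited table. The other 3 ATPases did not pass: Psmc1 had 0.16 ± 0.057 (adjusted p = 0.070), Psmc5 0.10 ± 0.058 and Psmc6 0.037 ± 0.069 in the authors' deposited table. The ring has 1 copy of each ATPase, and its genes spread from 2.56% to 15.5% above wild type in the authors' deposited table.

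All 11 non-ATPase subunits of the cap had a log2 fold change above 0, with a median of 0.099, and 2 passed. The lowest was Psmd1, a scaffold of the base, at 0.037 ± 0.055 in the authors' deposited table. Psmd4, a ubiquitin receptor, had 0.075 ± 0.063 in the authors' deposited table. Psmd14, the deubiquitinase that removes ubiquitin chains before entry, had 0.064 ± 0.069 in the authors' deposited table. The receptor and the deubiquitinase lay below the class median by less than their SEs, so these values neither show nor exclude a difference by role. Psmd7, the partner of Psmd14 in the lid, had 0.16 ± 0.060 (adjusted p = 0.072) by the authors' deposited table.

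In the 20S core all 7 alpha and all 7 constitutive beta genes had a log2 fold change above 0. Among the alpha genes 0 of 7 passed, with a median of 0.15 and 6 at an unadjusted p under 0.05. They ranged from 0.044 ± 0.073 for Psma3 to 0.18 ± 0.080 for Psma4 in the authors' deposited table. Of the beta genes, Psmb4 (chromosome 3, 94884093 to 94886961) passed, with a rise of 12.1% (log2 0.16 ± 0.055, adjusted p = 0.046) by the authors' deposited table. Psmb4 makes no cut and helps join precursors into the full barrel. The 3 subunits with cutting sites did not pass: Psmb5 had 0.14 ± 0.064, Psmb6 0.11 ± 0.049 and Psmb7, the highest of the class, 0.17 ± 0.070 in the authors' deposited table. Psmb2, the lowest of the class, had 0.040 ± 0.084 in the authors' deposited table. Core and cap together made 31 of 31 genes with a log2 fold change above 0, of which 6 passed.

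**Figure D2:**
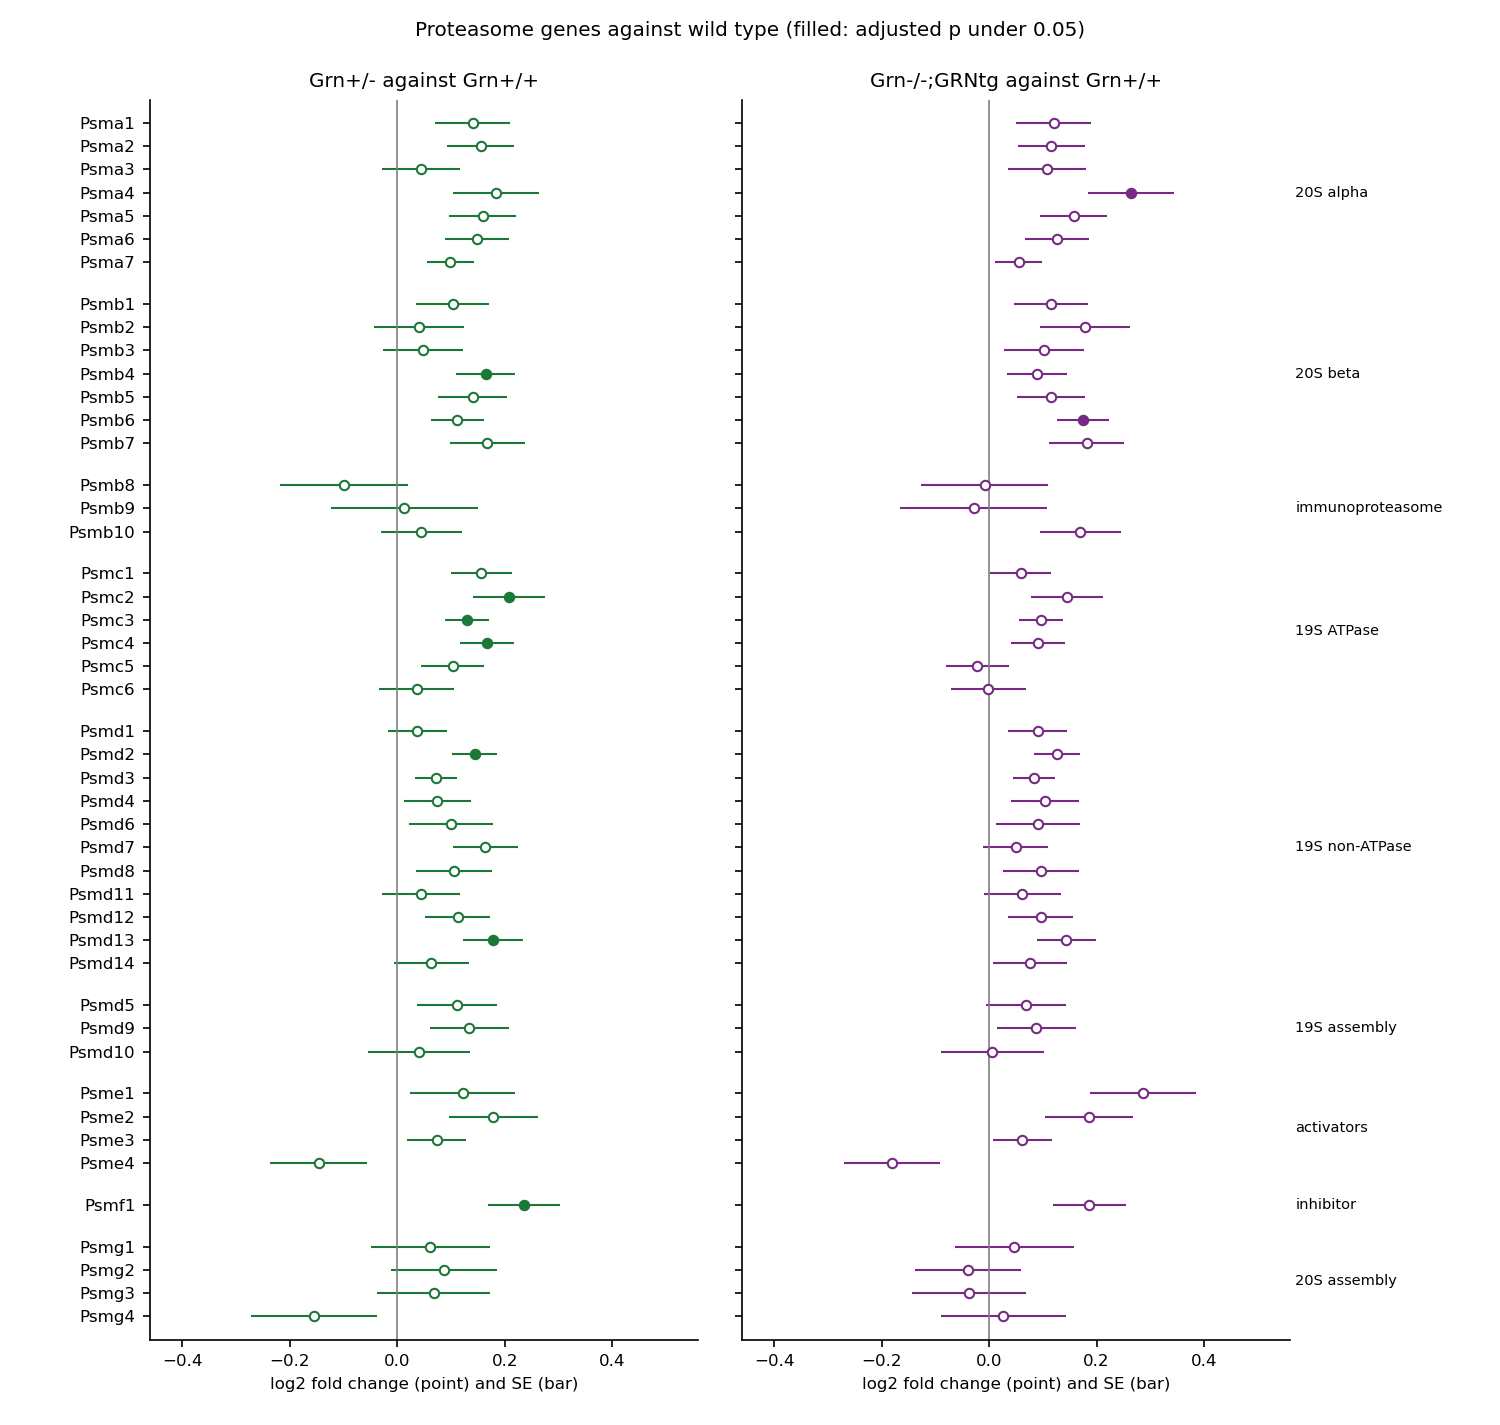
Log2 fold change (point) and SE (bar) of the 46 proteasome genes in Grn+/- (left) and Grn-/-;GRNtg (right) against the same 5 wild-type mice, by class. Filled points have an adjusted p under 0.05: 7 on the left and 2 on the right, all above 0. The points of the core and the cap lie above 0 on the left, and those of the immunoproteasome lie on both sides.

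The regulators and chaperones were mixed. Psme1 and Psme2, which form the interferon-inducible activator PA28, had 0.12 ± 0.098 and 0.18 ± 0.082 in the authors' deposited table. Psme3, the nuclear member of that family, had 0.074 ± 0.055 in the authors' deposited table. Psme4 encodes PA200, an activator linked to the turnover of acetylated histones, and had the lowest value of the activators, -0.15 ± 0.090 in the authors' deposited table. It is also the longest of all members, with a span of 108.6 kb. The chaperones of the 20S core ran from -0.16 ± 0.12 for Psmg4 to 0.088 ± 0.098 for Psmg2 in the authors' deposited table. Those of the cap base ran from 0.040 ± 0.095 for Psmd10 to 0.13 ± 0.074 for Psmd9 in the authors' deposited table. None of the 11 activators and chaperones passed.

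No immunoproteasome subunit passed in Grn+/-. Psmb8 had -0.10 ± 0.12, Psmb9 0.013 ± 0.14 and Psmb10 0.045 ± 0.075 in the authors' deposited table. The 95% interval of Psmb9 ran from -0.26 to 0.28 in the authors' deposited table, so a change of the size seen in the core was not detectable. Of 8 other genes of antigen processing (Tap1, Tap2, Tapbp, H2-K1, H2-D1, B2m, Nlrc5 and Irf1) 0 passed in any of the 3 comparisons by the authors' test. At an unadjusted p under 0.05 there were 1, 2 and 3, for Grn+/-, for Grn-/-;GRNtg and for the mutant groups against each other, against 20.2%, 20.5% and 8.99% of all genes. The 1 was higher, and the 2 and the 3 were all lower.

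In Grn-/-;GRNtg against the same wild-type mice, 2 of the 46 genes rose (4.35%) and 0 fell, where 1.81% of all genes rose and 3.05% fell in the authors' deposited table. With 2 genes the share is too near that of all genes to set the members apart. The log2 fold change was above 0 in 39 of the 46, against 51.3% of all genes, with a median of 0.094 against 0.005. At an unadjusted p under 0.05, 15 were higher and 1 was lower, against 10.1% of all genes higher and 10.4% lower (20.5% in all). With the span trend removed, or with the robust spread, 0 of the 2 passed. Both genes that rose belong to the core. Psmb6 (chromosome 11, 70525367 to 70527858), the subunit with the caspase-like site, rose by 12.9% (log2 0.17 ± 0.049, adjusted p = 0.016) by the authors' deposited table. Psma4 (chromosome 9, 54950790 to 54958030), a subunit of the gated alpha ring, rose by 20.1% (log2 0.26 ± 0.080, adjusted p = 0.029) by the authors' deposited table.

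All 14 constitutive core genes again had a log2 fold change above 0, from 0.055 ± 0.044 for Psma7 to the value of Psma4 in the authors' deposited table. Within the beta ring the lowest was Psmb4 at 0.089 ± 0.055 and the highest Psmb7 at 0.18 ± 0.070 in the authors' deposited table. In the cap 0 of 17 genes passed, with 5 at an unadjusted p under 0.05, all higher. Of all genes 10.1% were higher and 10.4% lower at that threshold (20.5% in all). Its ATPases ran from -0.022 ± 0.058 for Psmc5 to 0.15 ± 0.067 for Psmc2, with Psmc6 at -0.001 ± 0.070, Psmc3 at 0.097 ± 0.041 and Psmc4 at 0.091 ± 0.050 in the authors' deposited table. Its other subunits were all above 0, from 0.049 ± 0.060 for Psmd7 to 0.14 ± 0.055 for Psmd13 (adjusted p = 0.0996) by the authors' deposited table. Psmd2 had 0.13 ± 0.042 (adjusted p = 0.054), by the authors' deposited table.

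The regulators held the highest and the lowest member of this comparison. Psme1 had the highest value, 0.29 ± 0.098 (adjusted p = 0.061), and its partner Psme2 had 0.19 ± 0.082 (adjusted p = 0.17) by the authors' deposited table. Psme4 had the lowest, -0.18 ± 0.090 (adjusted p = 0.23) by the authors' deposited table. Psmf1 had 0.19 ± 0.067 (adjusted p = 0.077), by the authors' deposited table. The core chaperones ran from -0.039 ± 0.099 for Psmg2 to 0.047 ± 0.11 for Psmg1, and the cap chaperones from 0.006 ± 0.095 for Psmd10 to 0.088 ± 0.074 for Psmd9, in the authors' deposited table. Of the immunoproteasome, Psmb8 had -0.008 ± 0.12, Psmb9 -0.029 ± 0.14 and Psmb10 0.17 ± 0.075 (adjusted p = 0.16) by the authors' deposited table. Psmb10 alone among the 3 was at the level of the constitutive beta genes in reads per kb. Its fold change here lay within their range. The 95% intervals of Psmb8 (-0.24 to 0.22) and Psmb9 (-0.30 to 0.24) also held the value of Psmb10, so a difference in fold change among the 3 is not shown.

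**Figure D3:**
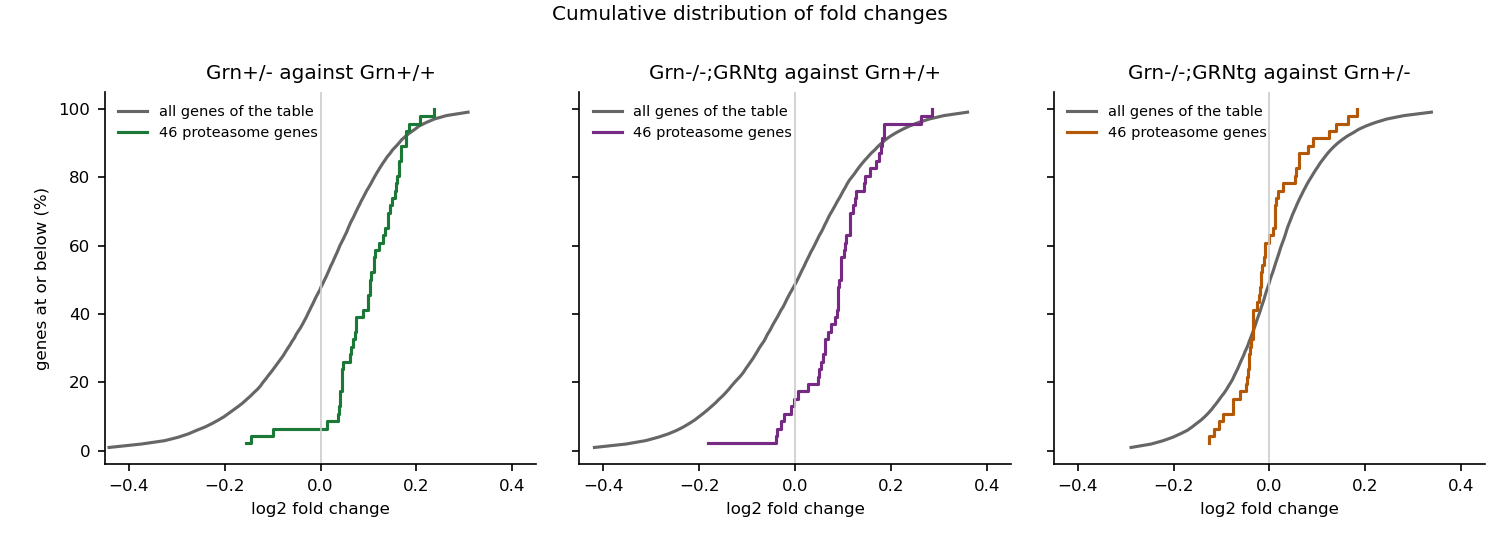
Share of genes at or below each log2 fold change, for all genes of a table (grey) and for the 46 proteasome genes (colour), in the 3 comparisons. Against wild type the proteasome line lies to the right of the grey line over most of its height, with medians of 0.10 and 0.094. Between the mutant groups the lines cross, with a median of -0.017 for the 46 genes.

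The mutant groups share their wild-type controls, so their fold changes against wild type are not independent, and whether the groups differ was read from their direct comparison. There 0 of 49 genes passed by the authors' Wald test, where 0.319% of all genes were higher and 0.148% lower in Grn-/-;GRNtg in the authors' deposited table. At an unadjusted p under 0.05 there was 1 of 49, against 8.99% of all genes. That gene was Psmc5, at -0.13 ± 0.061 (unadjusted p = 0.040, adjusted p = 0.52) by the authors' deposited table. The log2 fold change was above 0 in 18 of the 49, against 50.8% of all genes, with a median of -0.018.

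None of the genes that rose in 1 mutant group was called different from the other. Psmf1 differed by -0.049, with a 95% interval from -0.19 to 0.088, in the authors' deposited table. For Psmc2 the difference was -0.062 (-0.20 to 0.075), and for Psmc4 it was -0.076 (-0.18 to 0.027), in the authors' deposited table. For Psmc3 it was -0.033 (-0.12 to 0.051), for Psmd2 -0.018 (-0.10 to 0.069) and for Psmd13 -0.035 (-0.15 to 0.078) in the authors' deposited table. Psmb4 differed by -0.076 (-0.19 to 0.038) in the authors' deposited table. Of the genes called in Grn-/-;GRNtg, Psma4 differed by 0.080 (-0.083 to 0.24) and Psmb6 by 0.063 (-0.037 to 0.16) in the authors' deposited table. These intervals hold 0 and reach to either side of it, so they do not show that the groups are alike.

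By class, all 6 ATPases and all 3 cap chaperones had a lower value in Grn-/-;GRNtg than in Grn+/-, with medians of -0.069 and -0.043. The ATPases ran from Psmc5 to Psmc3 (-0.033), and the cap chaperones from -0.046 ± 0.077 for Psmd9 to -0.034 ± 0.099 for Psmd10 in the authors' deposited table. Of the alpha genes 2 of 7 were above 0, from -0.044 ± 0.046 for Psma7 to Psma4. Of the beta genes 5 of 7 were above 0, from Psmb4 to Psmb2 at 0.14 ± 0.087 in the authors' deposited table. Other cap subunits ran from -0.11 ± 0.063 for Psmd7 to 0.053 ± 0.057 for Psmd1 in the authors' deposited table. The activators ran from -0.035 ± 0.094 for Psme4 to 0.16 ± 0.10 for Psme1, with Psme2 at 0.007 ± 0.085, in the authors' deposited table. Psmg2 (-0.13 ± 0.10) and Psmg4 (0.18 ± 0.12) were the lowest and highest of all members in the authors' deposited table. The immunoproteasome genes were at 0.091 ± 0.12 for Psmb8, -0.042 ± 0.14 for Psmb9 and 0.13 ± 0.078 for Psmb10 in the authors' deposited table. The 3 genes listed here alone were at -0.086 ± 0.084 for Psma8, -0.073 ± 0.087 for Psmb11 and 0.088 ± 0.10 for Psme2b in the authors' deposited table, all with under 5 mean normalized counts.

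**Figure D4:**
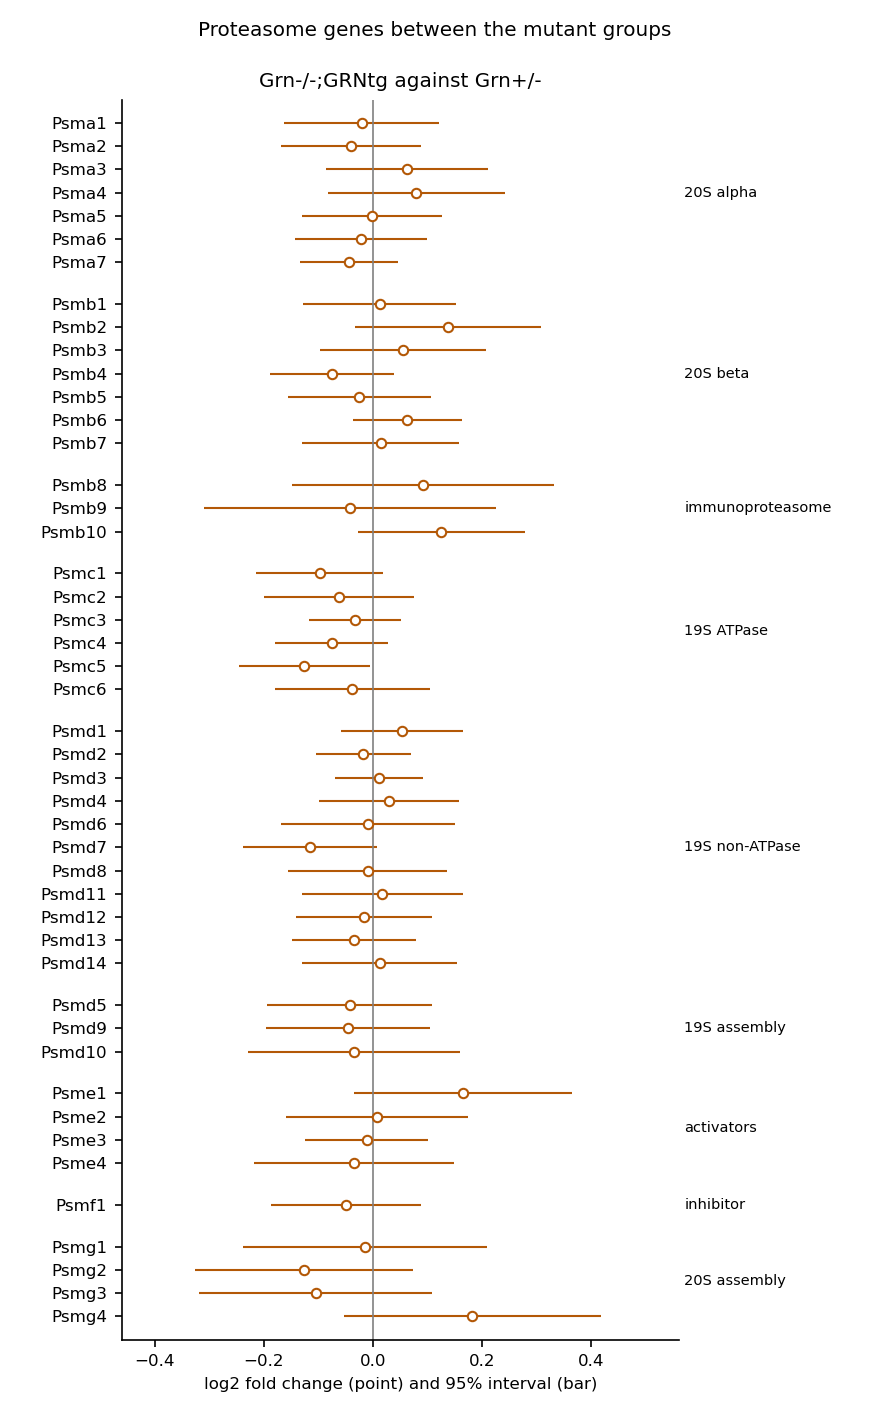
Log2 fold change (point) and 95% interval (bar) of the 46 proteasome genes in Grn-/-;GRNtg against Grn+/-, by class. No gene passes at an adjusted p under 0.05. The 6 ATPases all lie below 0, and the interval of Psmc5 alone does not reach 0.

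Genes that work with the proteasome but fall outside the naming rule were read from a list of 41, of which 39 were measured. In Grn+/- against wild type 2 rose and 2 fell, with a median of 0.031. These shares are near those of all genes, 2.29% and 4.51%. Rad23b, a shuttle factor, had 0.18 ± 0.061 (adjusted p = 0.042) and Sqstm1, which encodes the autophagy receptor p62, 0.17 ± 0.052 (adjusted p = 0.019) by the authors' deposited table. The Rad23b protein docks on the cap subunit that Psmd2 encodes. The 2 that fell were Uba6, a ubiquitin-activating enzyme, at -0.46 ± 0.10 (adjusted p = 5.0e-04), and AI314180, the mouse gene of the proteasome scaffold ECPAS (ECM29), at -0.28 ± 0.079 (adjusted p = 0.014) by the authors' deposited table.

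In Grn-/-;GRNtg against wild type 0 of the 39 passed by the authors' Wald test, with 13 at an unadjusted p under 0.05 (6 higher and 7 lower, against 20.5% of all genes), and the median was 0.056. Between the mutant groups 0 passed, with 2 at an unadjusted p under 0.05, against 8.99% of all genes. Subunits and a core chaperone named outside the rule did not pass in Grn+/-: Adrm1, a ubiquitin receptor, had 0.10 ± 0.060, and Pomp, the maturation protein of the core, 0.10 ± 0.064 in the authors' deposited table. Of 8 listed genes for transcription factors of proteasome genes and for their processing, 0 rose. In each comparison with wild type 6 of the 8 were below 0, with medians of -0.13 (Grn+/-) and -0.17 (Grn-/-;GRNtg). At an unadjusted p under 0.05 by the authors' Wald test, 1 and 4 were lower and 0 higher. Of all genes 11.1% and 10.4% were lower at that threshold. Nfe2l1 had 0.079 ± 0.066 in Grn+/-, -0.067 ± 0.066 in Grn-/-;GRNtg and -0.15 ± 0.069 between them in the authors' deposited tables. Nfe2l2 had -0.16 ± 0.10 and -0.26 ± 0.10 against wild type in the authors' deposited tables.

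The size of a gene moved with its fold change in these tables, and proteasome genes are short. Their median genomic span was 12.1 kb, against 25.9 kb for all genes listed in Grn+/- against wild type. The median log2 fold change of all genes fell from 0.058 in the shortest of 10 equal groups by span to -0.049 in the ninth, by the authors' deposited table. In Grn-/-;GRNtg it fell from 0.059 to -0.036 over the same groups. The longest group did not go on falling, with medians of -0.033 and -0.007. With the median of genes of like span subtracted, 1 of the 7 genes still passed in Grn+/-, Psmf1 (log2 0.23, adjusted p = 0.019). The other 6 had adjusted p between 0.063 and 0.28, and their log2 fold changes lay between 0.095 for Psmc3 and 0.19 for Psmc2. Psmd13 was then at 0.16, Psmc4 at 0.12, Psmd2 at 0.11 and Psmb4 at 0.11. In Grn-/-;GRNtg 0 of the 2 passed, with log2 0.24 (adjusted p = 0.058) for Psma4 and 0.12 (adjusted p = 0.15) for Psmb6. The median of the 46 genes was then 0.066 in Grn+/- and 0.080 in Grn-/-;GRNtg, and 40 and 38 of them stayed above 0.

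**Figure D5:**
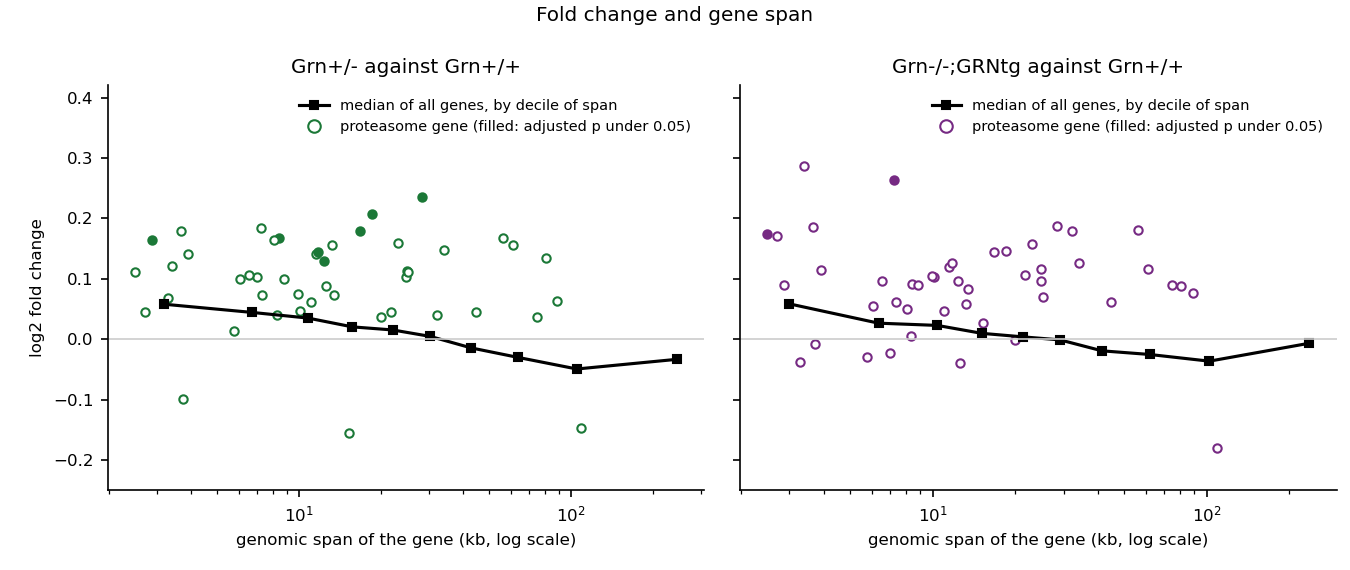
Log2 fold change against the genomic span of the gene (log scale) in Grn+/- (left) and Grn-/-;GRNtg (right) against wild type. Circles are proteasome genes, filled at an adjusted p under 0.05, and squares joined by a line are medians of all genes in 10 equal groups by span. Most circles lie above the line, and Psme4, the longest member, lies below it in both panels.

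Other measures moved with the same comparisons. For the counts that follow, 4.51% of all genes fell in Grn+/- and 3.05% in Grn-/-;GRNtg. Of 8 nuclear-retained RNAs 4 fell in Grn+/- (Malat1, Rian, Mirg and Kcnq1ot1, list median -0.23) and 1, Malat1, fell in Grn-/-;GRNtg (list median -0.14). Reads assigned to no gene fell in both, at -0.22 ± 0.052 (adjusted p = 0.002) and -0.18 ± 0.052 (adjusted p = 0.024) by the authors' deposited tables. Of the cell type markers, 2 of 7 for astrocytes fell in Grn+/- (Gja1 and Slc1a2), and 3 of 8 for endothelium (Flt1, Kdr and Slco1c1) and 1 of 5 for excitatory neurons (Camk2a) fell in Grn-/-;GRNtg. None of 10 microglial, 6 oligodendrocyte or 6 inhibitory neuron markers passed in either. All 6 oligodendrocyte markers were below 0 in both (medians -0.14 and -0.22), with SEs of 0.135 to 0.138. Inhibitory neuron markers were above 0 for 6 of 6 in Grn+/- (median 0.13) and 5 of 6 in Grn-/-;GRNtg. In each comparison 8 of 10 microglial, 6 of 7 astrocyte and 6 of 8 endothelial markers were below 0. The part of these measures in the values of the proteasome genes was not tested. For comparison, where 2.29% of all genes rose and 4.51% fell, 0 of 77 cytosolic ribosomal genes passed in Grn+/-, with a median of -0.001. There 4 of 15 subunits of the vacuolar proton pump rose, with a median of 0.17. These lists were set beside the members as description, with no test between them.

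The spread of the members' log2 fold changes was near their median SE in size. All members were measured in the same mice, so this does not show that they differ by error alone. In Grn+/- the SD of the 46 log2 fold changes was 0.081 and their median SE 0.069, in Grn-/-;GRNtg 0.082 and 0.069. The smallest Wald statistic that passed in Grn+/- was 2.93, so a member of median SE needed a log2 fold change of about 0.20. The genes that passed there had a median mean normalized count of 1725, against 808 for those that did not. Of 8 members on chromosome 11, where Grn lies, 0 passed in Grn+/-, and 1, Psmb6, in Grn-/-;GRNtg, at 31.9 Mb from Grn. Psme3, the nearest at 1.11 Mb, had 0.074 ± 0.055 and 0.062 ± 0.055 in the authors' deposited tables. Reads of overlapping genes can be shared, on opposite strands only if counting ignored strand: 10.1% of the exon bases of Psmd13 overlap Sirt3, 8.25% of those of Psmc3 overlap Slc39a13, and 4.81% of those of Psma4 overlap AY074887. Of the members that did not pass, Psmd9 shared 25.5% with Gm26745, Psmb8 14.7% with Gm20496, Psmb5 12.1% with Mir686 and Psmb7 11.8% with Nek6. Annotated copies or pseudogenes of Psmb6, Psma5, Psmb5, Psmb7 and Psme2 can also share reads with them.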

How the data were processed

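Directional libraries of cortex RNA were sequenced by the authors, per the labels. The submitters' processing notes name R 4.1.2, DESeq2 1.34.0 and the build mm10, with no role. Not given in the sources used here: the aligner, the counter, its strand setting and the annotation. The authors' deposited tables give a mean normalized count, a signal averaged over libraries, and a log2 fold change with its SE, per the file headers. They also give a statistic, a score, and a p-value with an adjusted p-value, per the file headers. Recomputing from the deposited columns returned the statistic as log2 fold change over SE, the p-value as its two-sided normal p, and the adjusted one by Benjamini-Hochberg over all rows, each within 1e-06. The depth of each library is unknown, and the mean normalized counts of genes summed to 18113972. Rows that name no gene were left out; they held 17.0% (no feature) and 0.606% (ambiguous) of the mean normalized counts. SEs end at 0.138 in all 3 tables, and they do not simply follow the number of reads. Psma8, at a mean normalized count of 4.19, had 0.084 between the mutant groups, below the 0.136 of Psmb9 at 38.1. The 6 oligodendrocyte markers, at 728 to 49666, had 0.135 to 0.138 in Grn+/- against wild type. The sources do not say whether the authors drew fold changes towards 0. A common ceiling of the SEs, and so small an SE at a count of 4.19, make it probable that they did. Percent changes and intervals are thus those of the deposited values, which are then smaller in size than the raw ones. The tables' fold changes add up for every member, so they come from 1 fit over the 3 groups. P-values measure only the spread between these mice, and the labels give no litter, batch or dissection day, so none can be told apart from genotype. The short lists of genes the authors called were not used.

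A gene passed at the authors' adjusted p under 0.05 over its whole table, and 95% intervals are the log2 fold change with the normal quantile times its SE. The members and lists were chosen with earlier results of these data known. Some listed pathway genes are not reported here and are left out of the counts of their lists. Named were each gene that passed in any comparison, the highest and lowest of each class in each comparison, the immunoproteasome genes, Psme1, Psme2, and the other pathway genes and markers that passed; other genes named beside them were chosen for their role after their values were seen. Spans, exon lengths and overlaps are from GENCODE M21 on GRCm38, and 99.5%, 99.3% and 99.0% of the genes of the 3 tables had a span. Promoter windows of 300 bases are from RefSeq (GRCm38.p6). P-values were recomputed in Python 3.11.15 (scipy 1.17.1, numpy 2.4.6, pandas 2.3.3) under 8 other settings, by steps tested on simulated data.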

Additional observations from a re-analysis of the deposited data

How the results depend on the processing

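No paired analysis was possible because the deposited tables used here hold no values per mouse, and leaving out single mice was not run for the same reason. The 7 genes that passed in Grn+/- were 0 when statistics were divided by their robust spread over all genes (1.49), 1 with the span trend removed, 3 with the trend over mean normalized count removed (Psmc4, Psmd13, Psmf1) and 2 at an absolute log2 fold change of at least 0.2 (Psmc2, Psmf1). They were 6 or 7 with fold changes centred, over genes in all 3 tables, or at a mean normalized count of at least 100, and 9 at an adjusted p under 0.1. The 2 of Grn-/-;GRNtg were 0 with the robust spread (1.56), 0 with the span trend removed, 1 at the log2 minimum and 6 at an adjusted p under 0.1 (Psma4, Psmb6, Psmd13, Psmd2, Psme1, Psmf1). They were 2 or 3 under the other settings. The robust spread takes all genes as a null, which a broad change also widens, and the cause of these losses was not tested. Between the mutant groups 0 passed under all 8 settings. No member that passed changed direction. Signs changed only with the span trend removed, for 3 members in Grn+/- (Psmb9, Psmb10, Psmd10), 1 in Grn-/-;GRNtg (Psmd10) and 1 between the groups (Psmd14). The SE of a member sets what could be seen, and it ran from 0.039 to 0.14 in Grn+/-.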
